A study of Mus musculus with 56 samples.

Results

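The 10 mRNAs described here are copied from the mitochondrial genome rather than from the nucleus. They are the mitochondrially encoded transcripts mt-Nd1, mt-Nd2, mt-Nd4, mt-Nd5, mt-Nd6, mt-Cytb, mt-Co1, mt-Co2, mt-Co3 and mt-Atp6, chosen by name, with their rows taken from 2 tables of gene counts that each list 47937 genes. The annotation places 37 of the listed genes on the mitochondrial genome, and the 27 that are not among these 10 are mostly tRNA genes. All 10 had counts, and 7 of them passed the filter on low counts in both tables, while mt-Co2, mt-Co3 and mt-Atp6 did not. CD4+ T cells from spleen and lymph nodes of C57BL/6 mice were activated with anti-CD3, anti-CD28 and IL-2, polarized in vitro and collected on day 4 as TH1, TH2, TH17 or Treg cells. In the deficient lines, a Cre recombinase driven by the CD4 promoter acts on loxP-flanked exons of Odc, which encodes the polyamine-synthesizing enzyme ornithine decarboxylase, or of Dohh, which encodes the hypusine-synthesizing enzyme deoxyhypusine hydroxylase. The controls (WT) lacked Cre, and each table has WT libraries of its own. The CD4 promoter is active from thymic development on, also in the precursors of CD8+ T cells. The Odc table holds 4 WT libraries per subset and 4 labelled Odc-/-, except for 3 labelled Odc-/- in TH2 cells, where replicate 1 is not analysed here. The Dohh table holds 3 libraries per genotype and subset, so that 55 libraries of 56 labelled samples were used. The labels give neither the age of the mice nor which libraries come from the same animal. The libraries held between 5905374 and 9145214 counts in the Odc table, and between 6572148 and 12576933 counts in the Dohh table.

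The mitochondrial genome encodes subunits of the respiratory chain and of ATP synthase, together with the rRNAs and tRNAs that translate them inside the organelle. Its strands are each copied by the polymerase POLRMT into long transcripts that are then cut apart, largely at the tRNAs that lie between the mRNAs, so that the amount of each mRNA depends on its stability as well as on transcription. In T cells, activation is accompanied by growth of the mitochondrial mass and of oxidative metabolism. Of the members, mt-Nd1, mt-Nd2, mt-Nd4, mt-Nd5 and mt-Nd6 encode subunits of complex I (NADH dehydrogenase), mt-Cytb encodes cytochrome b of complex III, mt-Co1, mt-Co2 and mt-Co3 encode the core subunits of complex IV (cytochrome c oxidase), and mt-Atp6 encodes a membrane subunit of ATP synthase.

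Several measured facts bear on the groups before any comparison. Apart from Odc1 in TH17 cells, no targeted gene passed as lower in libraries labelled as deficient. Odc1, the gene of ornithine decarboxylase, was lower in libraries labelled Odc-/- in TH17 cells (log2 fold change -0.40; quasi-likelihood test of edgeR, adjusted p = 0.0416) and did not pass the test in the other 3 subsets, where it was -0.20 to 0.26. Dohh was higher in libraries labelled Dohh-/- in TH1, TH2 and Treg cells (log2 fold changes 1.43, 1.10 and 1.15). In TH17 cells it was 0.41 and did not pass the test (adjusted p = 0.189, edgeR). The counts cover all exons of a gene, with no separate count for those that were floxed, and the groups are therefore called by their labels throughout. T-cell markers (Cd3d, Cd3e, Cd3g, Cd4, Cd5 and Lck) were all detected, and their summed level was 1898 to 3307 CPM in WT and 1580 to 2893 CPM in libraries labelled Odc-/-, against 2766 to 3711 and 1304 to 2906 CPM in the Dohh table. CPM are counts scaled to a common library size (edgeR's CPM scale with TMM factors). The 5 markers of basophils and mast cells summed to at most 13.9 CPM in WT and to between 10.3 and 279 CPM in libraries labelled Odc-/-, and to at most 2.99 CPM in WT and between 37.0 and 948 CPM in those labelled Dohh-/-. The 5 myeloid markers reached 42.4 CPM in WT and 330.5 CPM in deficient libraries of the Odc table. In the Dohh table they reached 33.8 and 4469 CPM, with Itgam at 0 in every library. With the Odc-/- label they were not higher in TH1 (5.74 to 13.3 CPM, WT 6.66 to 18.0 CPM) or TH2 cells (6.07 to 7.95 CPM, WT 14.0 to 18.8 CPM). The 5 B-cell markers reached 91.8 CPM in WT and 486 CPM in deficient libraries of the Odc table. The CD8 markers Cd8a and Cd8b1 summed to 16.2 to 41.4 CPM in WT Treg libraries of the Odc table and to 144 to 219 CPM in those labelled Odc-/-. With the Dohh label they went from 20.7 to 26.8 CPM in WT to 173 to 338 CPM in Treg and from 22.7 to 26.2 CPM to 87.7 to 151 CPM in TH17 libraries. Among the subset markers of the Odc table, Tbx21 with Ifng was highest in TH1 and Gata3 with Il4 in TH2 libraries, but Foxp3 with Il2ra, an activation marker as well, was not higher in WT Treg (2879 to 3787 CPM) than in WT TH1 libraries (3329 to 4554 CPM). The part of these cells in the results below was not tested. In the Dohh table, 2 libraries stood apart in the members themselves, namely replicate 2 of the TH1 libraries and replicate 3 of the TH17 libraries labelled Dohh-/-. The log2 fold changes of the tested members against WT in these 2 subsets are given with and without them. No pair of libraries of a group agreed within sampling noise (the smallest chi-square per degree of freedom was 2.53).

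All members are encoded without introns on the mitochondrial chromosome (chrM, 1-based GRCm38 coordinates, GENCODE annotation vM21). On the plus strand, mt-Nd1 lies at chrM:2751-3707, mt-Nd2 at chrM:3914-4951, mt-Co1 at chrM:5328-6872, mt-Co2 at chrM:7013-7696, mt-Atp6 at chrM:7927-8607, mt-Co3 at chrM:8607-9390, mt-Nd4 at chrM:10167-11544, mt-Nd5 at chrM:11742-13565 and mt-Cytb at chrM:14145-15288. mt-Nd6 is the only member on the minus strand, at chrM:13552-14070, and its annotated end overlaps that of mt-Nd5 by 14 bases on the opposite strand. Its sequence stands apart in composition too. Read 5′ to 3′, mt-Nd6 holds 28.1% G and 5.97% C, whereas the other 9 members hold 8.0% to 16.1% G and 23.8% to 27.7% C. The first bases of mt-Nd6 and of mt-Cytb, its neighbour on the opposite strand, show this contrast, as the former is rich in g and t and the latter in a and c:
mt-Nd6: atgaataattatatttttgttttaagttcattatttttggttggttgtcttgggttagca
mt-Cytb: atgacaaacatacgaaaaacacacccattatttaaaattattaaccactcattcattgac

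The members also differed in how much of their sequence is repeated in the nuclear genome, which holds copies of mitochondrial DNA. Each member was cut into all its 75-base stretches, and these were looked for in the other annotated transcripts. For mt-Co2, mt-Atp6 and mt-Co3, 99.5%, 99.5% and 99.9% of the stretches were found in pseudogenes on chromosome 1. For mt-Nd4 the share was 61.5%, for mt-Co1 39.8%, for mt-Nd2 5.71% and for mt-Nd5 1.66%, and it was 0% for mt-Nd1, mt-Nd6 and mt-Cytb. Part of the mt-Co1 share came from Gm13340 on chromosome 2, which had 37 to 129 counts per library in the Odc table and 5 to 58 in the Dohh table. Only annotated copies could be searched, so these shares are lower bounds. The copies on chromosome 1 lie side by side on the minus strand of GRCm38: Gm28439 (chr1:24611535-24612410) matches bases 1 to 876 of mt-Nd4, Gm28437 (chr1:24613189-24613971) matches mt-Co3, Gm10925 (chr1:24613974-24614651) mt-Atp6, Gm28661 (chr1:24614885-24615565) mt-Co2, and Gm29216 (chr1:24615706-24616197) bases 1067 to 1545 of mt-Co1. Over their aligned length, the copies of mt-Co2, mt-Co3, mt-Atp6 and mt-Nd4 were 100% identical to the mitochondrial gene, and that of mt-Co1 was 98.8% identical, with 6 differing bases, from T1056A to A1066T (positions from 1 at the start of mt-Co1, mitochondrial base first). The sequences below show where the shared part begins or ends. Capitals mark bases within the stretch shared with chromosome 1, which covers the start of mt-Co2, mt-Co3 and mt-Atp6, ends inside mt-Nd4 (bases 847 to 906 shown) and begins inside mt-Co1 (bases 1037 to 1096 shown):
mt-Co2: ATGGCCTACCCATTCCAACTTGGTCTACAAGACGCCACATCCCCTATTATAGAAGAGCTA
mt-Co3: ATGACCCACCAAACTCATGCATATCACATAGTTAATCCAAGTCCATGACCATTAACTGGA
mt-Atp6: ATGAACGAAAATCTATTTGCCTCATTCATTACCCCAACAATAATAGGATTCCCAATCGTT
mt-Nd4: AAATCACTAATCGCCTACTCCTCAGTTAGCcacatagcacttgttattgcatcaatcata
mt-Co1: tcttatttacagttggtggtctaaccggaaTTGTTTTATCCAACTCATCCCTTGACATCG

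The 3 members with almost no unshared sequence had almost no counts. Over the 31 libraries of the Odc table, mt-Co2 had 61 counts in all, mt-Co3 91 and mt-Atp6 25, and no library held more than 7, 7 and 4. Over the 24 libraries of the Dohh table they had 22, 22 and 7, and no library held more than 5, 4 and 1. A count of 0 allows up to 3 counts, which is 0.31 to 0.499 CPM for the Odc libraries and 0.226 to 0.473 CPM for the Dohh libraries, and this limit covers counting error only. The copies on chromosome 1 had few counts as well, since Gm28661, Gm28437 and Gm10925 had at most 12, 15 and 10 counts in a library. How reads that match several places were counted is not given in the sources used here, and its part in these values was not tested. The values of mt-Co2, mt-Co3 and mt-Atp6 are therefore not read as levels of those mRNAs. Similarly, mt-Nd3, another complex I mRNA with 97.8% shared stretches, had only 7 to 66 counts per library. mt-Atp8, which is 204 bases long, shared none of its 75-base stretches and yet had at most 6 counts.

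**Figure D1:**
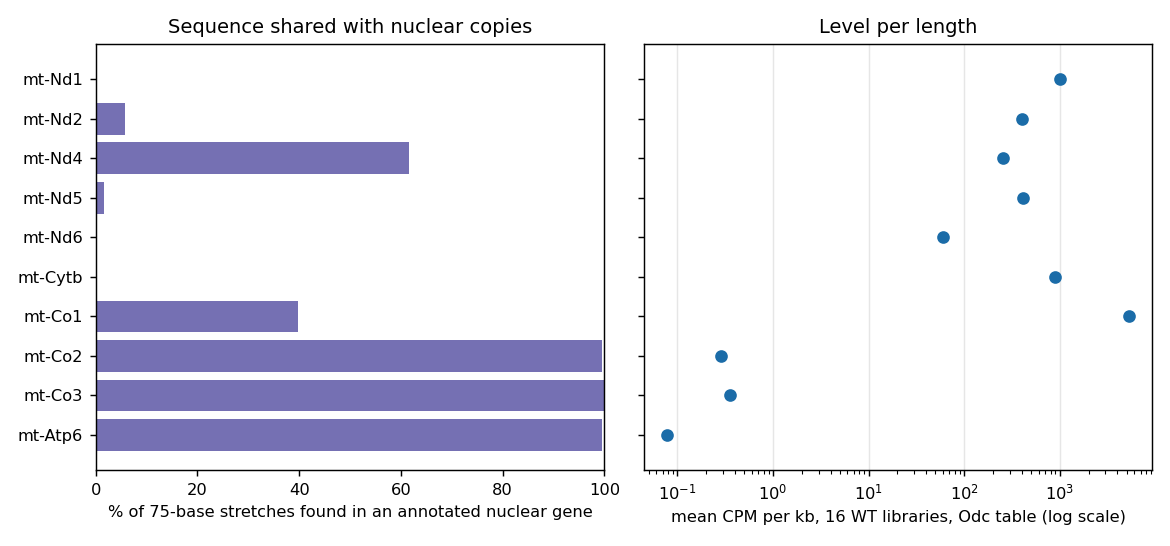
Left, percent of each member's 75-base stretches that occur in an annotated nuclear gene; right, mean CPM per kilobase over the 16 Odc-table WT libraries, on a log scale. The 3 members with 99.5% or more shared stretches have values below 1, not read as levels, and the other 7 lie between 60.3 and 5338.

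Among the 7 tested members, mt-Co1 was by far the most abundant per length in WT cells. Over the 16 Odc-table WT libraries it had 5338 ± 1489 CPM per kilobase (SD), followed by mt-Nd1 with 1003 ± 196, mt-Cytb with 899 ± 205, mt-Nd5 with 415 ± 96.0, mt-Nd2 with 401 ± 70.9, mt-Nd4 with 256 ± 67.5 and mt-Nd6 with 60.3 ± 19.1. The lowest WT library for mt-Co1 (3135) lay above the highest for mt-Nd1 (1396), the lowest for mt-Cytb (650.1) above the highest for mt-Nd5 (603), and the highest for mt-Nd6 (98.8) below the lowest for mt-Nd4 (135). By contrast, mt-Nd1 and mt-Cytb overlapped, as did mt-Nd5, mt-Nd2 and mt-Nd4, and the lowest library for mt-Nd1 (557) lay below the highest for mt-Nd5 (603) and for mt-Nd2 (574). Among the 12 Dohh-table WT libraries the order was mt-Co1 (4562 ± 863), mt-Cytb (662 ± 135), mt-Nd1 (642 ± 117), mt-Nd5 (253 ± 59.8), mt-Nd2 (184 ± 49.1), mt-Nd4 (169.7 ± 43.6) and mt-Nd6 (43.6 ± 14.8). Here mt-Cytb and mt-Nd1 overlapped, as did mt-Nd5, mt-Nd2 and mt-Nd4, but every library for mt-Nd1 (lowest 506) lay above those for mt-Nd5 (highest 369). Per kilobase of positions that start no shared 75-base stretch, a measure added after the data were seen, mt-Nd4 had 704 and 466 CPM in the 2 tables. It moved from rank 6 to rank 4, and mt-Co1 had 9320 and 7965 CPM. This measure divides all counts of a gene by those positions. It takes reads to be 75 bases long and none to come from shared sequence, and neither is known. The tables have separate WT libraries, and levels are not compared between them.

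WT subsets differed in some members. In the Odc table, mt-Nd4, mt-Nd5, mt-Nd6 and mt-Co1 differed among the 4 WT subsets (4 of 7, adjusted p = 0.00162, 0.00585, 0.0047 and 3.12e-05 from edgeR's quasi-likelihood F test), where 71.1% of all genes tested did. mt-Co1, the catalytic subunit of complex IV, had 10823, 9850.5, 11814 and 10509 CPM in TH1 cells and 10740.1, 9540.4, 10187 and 8139.6 CPM in TH2 cells. It had 7005, 5795, 6120.0 and 5954 CPM in TH17 cells and 7445, 4916, 8285 and 4843 CPM in Treg cells. The TH1 and TH2 libraries thus lay above all TH17 libraries, and Treg libraries split into a higher and a lower pair. In edgeR's test, mt-Co1 was lower in TH17 than in TH1 cells by a log2 difference of -0.79 (adjusted p = 0.000166) and in Treg than in TH2 cells by -0.60 (adjusted p = 0.0018), while TH1 and TH2 did not differ beyond their spread, nor did TH17 and Treg. mt-Nd4 and mt-Nd5 were highest in TH1 cells, and mt-Nd5 fell from 988 ± 96.3 CPM (SD, n = 4) there to 678 ± 47.1 CPM (SD, n = 4) in TH2 and 627 ± 172 CPM (SD, n = 4) in Treg cells. mt-Nd6, the light-strand mRNA, was lower in Treg than in TH1 cells by -0.78 (adjusted p = 0.00662) and than in TH2 cells by -0.87 (adjusted p = 0.00244). mt-Nd1, mt-Nd2 and mt-Cytb did not pass the test over the 4 subsets, although mt-Cytb was higher in TH17 than in TH2 cells by 0.44 (adjusted p = 0.0437, edgeR) when this pair was tested alone. WT libraries with the same replicate number deviated together across the Odc-table subsets, and with the number as a block within each genotype, a fit added after the data were seen, mt-Cytb passed as well (5 of 7, edgeR, adjusted p = 0.00485), where 81.5% of all genes did.

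In the Dohh table, none of the 7 members passed the same test with all 8 groups in the fit (0 at an unadjusted p below 0.05 as well, edgeR's quasi-likelihood F test), against 40.1% of all genes, and none did with the replicate number as a block within each genotype (41.0% of all genes). In a fit of the 12 WT libraries alone, which leaves out the libraries labelled Dohh-/-, all 7 passed (69.6% of all genes). The genes kept, the scaling and the spread all come from other libraries in that fit. Between TH1 and Treg cells, mt-Nd6 differed by -0.99 (standard error 0.46) with all 8 groups and by -1.01 (0.15) with the WT libraries alone. For mt-Co1 the values were -0.63 (0.32) and -0.65 (0.15). These log2 differences were similar and their standard errors smaller in the WT fit, so a failed test with all groups does not show equal levels. What moved each call was not tested. In that fit mt-Nd6 had the smallest adjusted p (9.74e-07 from edgeR's test). It had 30.3, 30.4 and 29.2 CPM in TH1 cells, 24.4, 31.3 and 32.5 CPM in TH2 cells, 15.7, 15.1 and 17.4 CPM in TH17 cells and 16.03, 16.7 and 12.5 CPM in Treg cells. The TH1 and TH2 libraries lay above all TH17 and Treg libraries. The same fit for the Odc table gave the 4 members already named (72.6% of all genes).

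The comparison of libraries labelled Odc-/- or Dohh-/- with WT libraries of the same subset asks whether loss of either enzyme goes with other mitochondrial mRNA levels. Members were mostly higher in the libraries labelled as deficient. Of 28 tests in the Odc table (7 members in 4 subsets), 23 passed an adjusted p-value below 0.05, all of them higher, and of 28 tests with the Dohh libraries, 15 were higher and 1 was lower. In libraries labelled Odc-/-, 5 of 7 members were higher in TH1 cells (29.1% of all genes tested were higher and 56.8% changed in either direction), 6 in TH2 cells (29.9% and 59.2%), 5 in TH17 cells (25.6% and 47.8%) and 7 in Treg cells (32.9% and 59.8%). In libraries labelled Dohh-/-, 1 member was higher and 1 lower in TH1 cells (25.9% of all genes were higher and 50% changed in either direction), 4 were higher in TH2 cells (23.8% and 45.3%), 5 in TH17 cells (27.0% and 52.0%) and 5 in Treg cells (28.4% and 53.4%). Their median log2 fold change was 0.80, 1.20, 0.92 and 1.74 in TH1, TH2, TH17 and Treg cells of the Odc table and 0.22, 1.35, 1.28 and 1.03 in those of the Dohh table, where the median over all genes tested lay between -0.0019 and 0.073 in every comparison. The Dohh TH1 median was 0.03 without replicate 2 labelled Dohh-/-, 0.47 without replicate 3, 0.38 without WT replicate 1 and 0.1 without WT replicate 3, and the TH17 median was 0.80 without replicate 3 labelled Dohh-/-. With a fold change above 2 required in addition, the threshold of the study, the Odc counts were 3, 5, 2 and 6 (21.4%, 25.1%, 15.6% and 24.0% of all genes) and the Dohh counts 1, 4, 4 and 4 (29.1%, 25.9%, 31.4% and 32.7%). Both kinds of count moved in some refits without 1 library. At the adjusted p alone, 3 members passed in Dohh TH17 cells without replicate 3 labelled Dohh-/-. In Dohh Treg cells 2 passed without WT replicate 2 or replicate 3 labelled Dohh-/-, and in Dohh TH1 cells the count ranged from 1 to 4. With that fold required, 1 member (mt-Nd1) passed in Dohh TH17 cells without replicate 3 labelled Dohh-/-, 2 (mt-Nd1 and mt-Nd2) in Dohh Treg cells without WT replicate 2, WT replicate 3 or replicate 3 labelled Dohh-/-, 2 in Dohh TH1 cells without replicate 3 labelled Dohh-/-, and 4 in Odc TH17 cells without WT replicate 1 or replicate 1 labelled Odc-/-. The libraries were made from bulk cultures, so more cells of a kind, more mitochondria per cell and more mRNA per mitochondrion cannot be told apart. The labels do not say which libraries come from separate mice, and p-values measure the spread between libraries. How many of all genes had groups without overlap was not computed, so statements on overlap describe the members only.

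**Figure D2:**
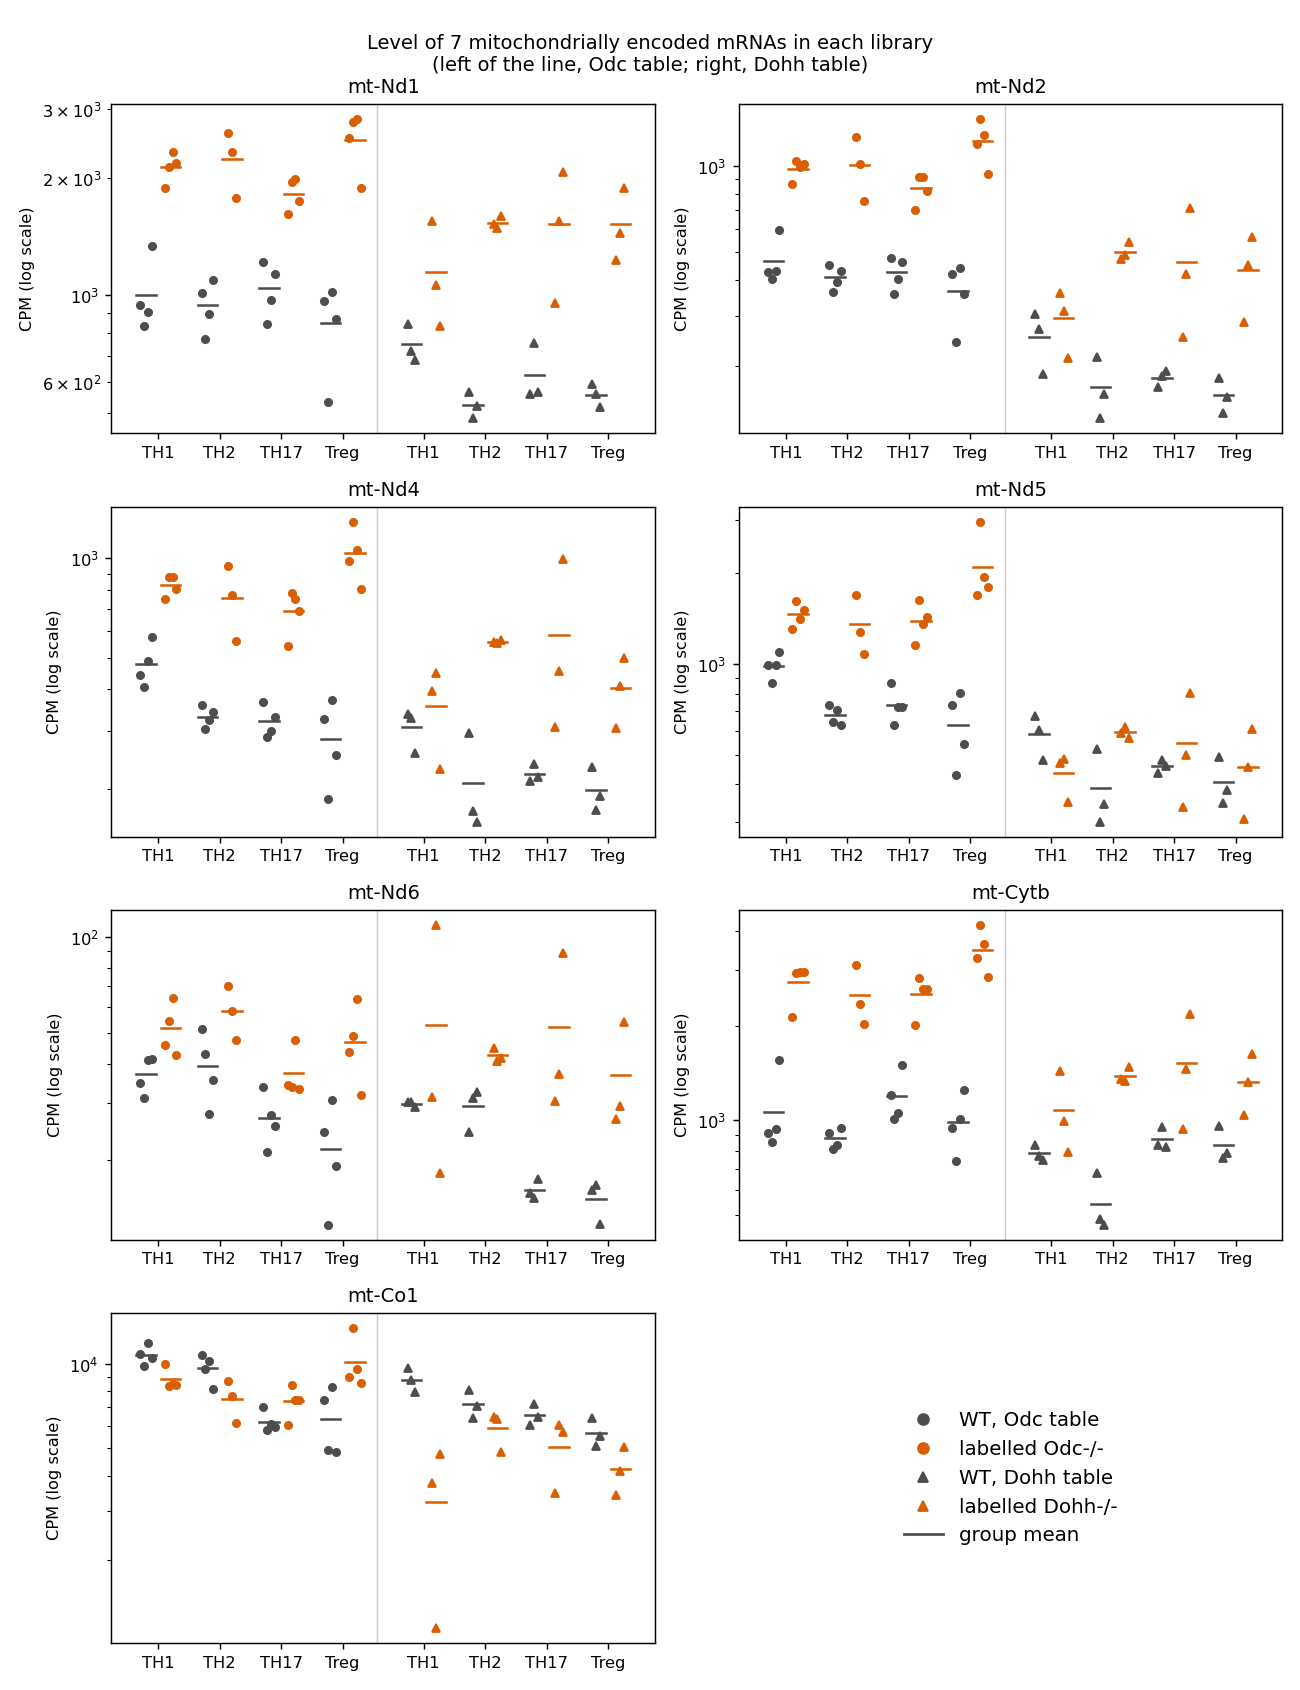
CPM of the 7 members that passed the filter, on a log scale, in each library (points) with the group mean (line), for WT (grey) and deficient (orange) libraries of the Odc table (circles) and of the Dohh table (triangles). Points of libraries labelled Odc-/- lie above all WT points for mt-Nd1, mt-Nd2, mt-Nd4, mt-Nd5 and mt-Cytb in each subset. The share of all genes with groups that do not overlap was not computed. For mt-Co1, TH1 cells of the Dohh table show the lowest library at 1147 CPM.

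mt-Nd1, the complex I subunit that lies first in the heavy-strand transcript among the members, was higher in all 8 comparisons. In TH1 cells of the Odc table, it had 944, 834, 905 and 1336 CPM in WT and 1889, 2132, 2329 and 2179.7 CPM in libraries labelled Odc-/-. In TH2 cells, the values were 1017, 774, 895 and 1099 CPM and 2613, 2325 and 1779 CPM. In TH17 cells, they were 1216, 846, 974 and 1137 CPM and 1619, 1949, 1988 and 1742 CPM. The groups did not overlap in any of these subsets, and the lowest library labelled Odc-/- was above the highest WT library each time. In Treg cells, WT libraries had 970.0, 533, 1018 and 868 CPM and those labelled Odc-/- 2526, 2777, 2838 and 1882 CPM, a log2-scale change of 1.56 ± 0.18 (SE; edgeR, adjusted p = 5.31e-08) that was the largest of mt-Nd1 in this table. The log2 fold changes in TH1, TH2 and TH17 cells were 1.09, 1.24 and 0.81, with adjusted p-values of at most 0.000566 from edgeR's test.

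In the Dohh table, mt-Nd1 in TH2 cells rose from 567, 484 and 519.9 CPM in WT to 1521, 1487 and 1596 CPM in libraries labelled Dohh-/-, a log2-scale change of 1.55 ± 0.24 (SE; edgeR, adjusted p = 3.77e-05). In TH17 cells it rose from 559, 756 and 567 CPM to 955, 1556 and 2071 CPM, and in Treg cells from 594, 559 and 516 CPM to 1231, 1444 and 1888 CPM. No group overlapped in these 3 subsets, and the log2 fold changes in TH17 and Treg cells were 1.28 and 1.45 (adjusted p = 0.000194 and 4.67e-05 from edgeR's test). In TH1 cells, WT libraries had 847, 722 and 683 CPM and those labelled Dohh-/- 1549.8, 1065 and 836 CPM, so that 1 of the latter fell within the WT range. The log2-scale change of 0.62 ± 0.24 (SE; edgeR, adjusted p = 0.0374) was 0.67 without replicate 2 labelled Dohh-/- (adjusted p = 0.0437) and did not hold without WT replicate 2 (adjusted p = 0.0837), WT replicate 3 (0.112) or replicate 1 labelled Dohh-/- (0.214).

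mt-Nd2 and mt-Nd4, further complex I subunits of the proton-pumping membrane arm, behaved much like mt-Nd1 in the Odc table. mt-Nd2 was between 405 and 596 CPM in WT TH1 libraries and between 864 and 1039 CPM in those labelled Odc-/-. Its log2 fold change was 1.07, 1.30, 0.98 and 1.74 in TH1, TH2, TH17 and Treg cells, with adjusted p-values of at most 5.26e-05 from edgeR's test. mt-Nd4 in Treg cells went from 325, 186, 371 and 253 CPM in WT to 985, 1292, 1063 and 808 CPM in libraries labelled Odc-/-, a log2-scale change of 1.87 ± 0.18 (SE; edgeR, adjusted p = 2.98e-09) and 3.66-fold higher, the largest change of any member in this table. In TH1, TH2 and TH17 cells it was 0.80, 1.20 and 1.11, each past the test. Groups of mt-Nd2 and of mt-Nd4 did not overlap in any of the 4 subsets.

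In the Dohh table, mt-Nd2 and mt-Nd4 were higher in TH2, TH17 and Treg cells. mt-Nd2 had 215, 132 and 160.1 CPM in WT TH2 libraries and 474, 487 and 544 CPM in those labelled Dohh-/-, a log2-scale change of 1.57 ± 0.30 (SE; edgeR, adjusted p = 0.000288). mt-Nd4 in the same libraries had 295, 171 and 159 CPM and 558, 555 and 565 CPM, a log2-scale change of 1.42 ± 0.33 (SE; edgeR, adjusted p = 0.00142). The 3 deficient TH2 libraries thus lay close together and well above WT. In TH17 cells, mt-Nd4 had 211, 237 and 217 CPM in WT and 308, 454 and 998 CPM in libraries labelled Dohh-/-, of which replicate 3 is more than 2 times the other two. Without replicate 3, the log2 fold changes of mt-Nd1, mt-Nd2 and mt-Nd4 in TH17 cells were 1.02, 0.90 and 0.80 (adjusted p = 0.00152, 0.0109 and 0.021, edgeR). The log2 fold changes in TH17 and Treg cells were 1.34 and 1.45 for mt-Nd2 and 1.4 and 1.03 for mt-Nd4, all past the test. The Treg call of mt-Nd4 was lost without WT replicate 2 (adjusted p = 0.0581) or without replicate 3 labelled Dohh-/- (0.0659, edgeR's test). In TH1 cells neither gene passed the test, with log2 fold changes of 0.22 (standard error 0.29) and 0.22 (standard error 0.32), which were 0.18 and 0.03 without replicate 2 labelled Dohh-/-, and 0.41 and 0.47 without replicate 3.

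mt-Nd5, the largest complex I subunit encoded in the organelle, was higher in every subset of the Odc table. It had 992, 864, 995 and 1099.7 CPM in WT TH1 libraries and 1309, 1626, 1418 and 1518 CPM in those labelled Odc-/-. In Treg cells, it had 732, 429.5, 806 and 543 CPM in WT and 1697, 2966, 1946 and 1811 CPM in libraries labelled Odc-/-. Its groups did not overlap in any subset of this table, and replicate 2 of the Treg libraries labelled Odc-/- was the highest library of the table for this gene. The log2 fold change was 0.57 in TH1 (SE 0.17; edgeR, adjusted p = 0.00605), 1.0 in TH2, 0.92 in TH17 and 1.75 in Treg cells (standard error 0.18, adjusted p = 7.99e-09). mt-Nd5 passed the test in no subset of the Dohh table. TH1 libraries had 673, 608 and 481 CPM in WT and 472, 484 and 349 CPM in those labelled Dohh-/-, with a log2 fold change of -0.43, or -0.52 without replicate 2 labelled Dohh-/-. TH2 libraries had 525, 301 and 345 CPM and 593, 622 and 572 CPM, with no overlap but an adjusted p of 0.0725 from edgeR's test, which became 0.0254 without WT replicate 1. In TH17 and Treg cells the groups overlapped, and the log2 fold changes were 0.25 and 0.17 (standard error 0.27 each). Neither passed the test, and both changed sign without replicate 3 labelled Dohh-/- of the subset (-0.12 and -0.15).

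mt-Nd6, the complex I subunit copied from the light strand, was the least abundant of the 7 tested members, with 121 to 689 counts per library. In Treg cells of the Odc table it went from 24.3, 12.5, 30.6 and 19.1 CPM in WT to 43.3, 48.8, 63.7 and 31.8 CPM in libraries labelled Odc-/-, a log2-scale change of 1.12 ± 0.23 (SE; edgeR, adjusted p = 0.000171). In TH2 cells it had 51.3, 42.9, 27.8 and 35.6 CPM and 69.8, 58.4 and 47.3 CPM, and the log2-scale change of 0.57 ± 0.24 (SE; edgeR, adjusted p = 0.0428) was lost without WT replicate 2, 3 or 4 or without replicate 2 or 3 labelled Odc-/- (adjusted p = 0.0608, 0.167, 0.0874, 0.197 and 0.0783 from edgeR's test). In TH1 and TH17 cells it did not pass the test (log2 fold changes 0.48 and 0.46). TH17 libraries of the Dohh table had 15.7, 15.1 and 17.4 CPM in WT and 30.6, 37.0 and 88.8 CPM in those labelled Dohh-/-, a log2-scale change of 1.69 ± 0.47 (SE; edgeR, adjusted p = 0.00524). Every deficient TH17 library was above all WT libraries, and without replicate 3, the highest, the log2 fold change was 1.09 and the adjusted p 0.0559 (edgeR's test). Treg libraries had 16.03, 16.7 and 12.5 CPM and 26.8, 29.5 and 53.8 CPM, a log2-scale change of 1.29 ± 0.46 (SE; edgeR, adjusted p = 0.0248) that was lost when any 1 of the 3 WT libraries was left out, or replicate 3 labelled Dohh-/-. In TH1 cells, WT libraries lay together at 30.3, 30.4 and 29.2 CPM, whereas those labelled Dohh-/- had 31.4, 109 and 18.2 CPM. Replicate 2 alone was above the WT range by more than 3 times, and without it the log2 fold change of 0.81, which had not passed the test, became -0.27, while without replicate 3 it was 1.24 and passed (adjusted p = 0.016, edgeR). The strand setting of the counting is not given in the sources used here. Without strand information, reads of mt-Nd6 and reads of the heavy-strand transcript that lies opposite to it cannot be told apart.

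mt-Cytb, cytochrome b of complex III, showed the highest fold change of the members in TH1 and TH2 cells of the Odc table. TH1 libraries had 910.2, 855, 937 and 1555 CPM in WT and 2125, 2939, 2954 and 2961 CPM in those labelled Odc-/-, a log2-scale change of 1.37 ± 0.18 (SE; edgeR, adjusted p = 2.39e-06). TH2 libraries had 910.2, 809, 837 and 946 CPM and 3121, 2351 and 2019.7 CPM, and TH17 libraries 1199.8, 1009, 1055 and 1499.5 CPM and 2009, 2831, 2626 and 2610.0 CPM. Treg libraries had 942, 744, 1008 and 1245 CPM and 3290.0, 4181, 3636 and 2861 CPM. Groups did not overlap in any of the 4 subsets, and mt-Cytb was 2.58-fold, 2.85-fold, 2.12-fold and 3.55-fold higher in TH1, TH2, TH17 and Treg cells. TH2 libraries of the Dohh table went from 679, 485 and 465 CPM in WT to 1349, 1333 and 1481 CPM in those labelled Dohh-/-, a log2-scale change of 1.35 ± 0.25 (SE; edgeR, adjusted p = 0.000226). In TH17 cells the groups overlapped, and the log2 fold change was 0.81 (adjusted p = 0.0101), and 0.48 without replicate 3 labelled Dohh-/- (adjusted p = 0.1001, edgeR's test). In Treg cells it was 0.67 (adjusted p = 0.0287 from edgeR's test), a call that did not hold without WT replicate 2, WT replicate 3, or replicate 2 or 3 labelled Dohh-/-. In TH1 cells it was 0.46 (standard error 0.25) and did not pass the test, with 0.51 without replicate 2 labelled Dohh-/- and 0.64 without replicate 3, where it passed (adjusted p = 0.0341, edgeR).

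mt-Co1, which encodes the catalytic subunit of complex IV, did not follow the other members. In the Odc table it passed the test in Treg cells only, where WT libraries had 7445, 4916, 8285 and 4843 CPM and those labelled Odc-/- 8953, 13380.5, 9581 and 8576 CPM, a log2-scale change of 0.67 ± 0.15 (SE; edgeR, adjusted p = 0.00056). In TH1 cells, WT libraries had 10823, 9850.5, 11814 and 10509 CPM and those labelled Odc-/- 10012, 8314, 8501 and 8386 CPM. In TH2 cells the values were 10740.1, 9540.4, 10187 and 8139.6 CPM and 8667, 7681 and 6128 CPM. The groups overlapped in both subsets, with log2 fold changes of -0.29 and -0.37 (adjusted p = 0.11 and 0.0605 from edgeR's test). The TH2 decrease passed without WT replicate 4 (-0.44, adjusted p = 0.0332) or without replicate 2 labelled Odc-/- (-0.48, adjusted p = 0.0356, edgeR). Both passed, as lower, when only the 2 groups compared were in the fit (adjusted p = 0.0196 and 0.0265). In TH17 cells it was 0.24 (adjusted p = 0.199).

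In the Dohh table, mt-Co1 was lower in TH1 libraries labelled Dohh-/-, the only decrease of a member that passed the test. WT libraries had 9631, 8736 and 7909.8 CPM and those labelled Dohh-/- 3751, 1147 and 4775 CPM, a log2-scale change of -1.44 ± 0.33 (SE; edgeR, adjusted p = 0.00111). All 3 deficient libraries lay below all WT libraries, and replicate 2 was below the others by more than 3 times. Without replicate 2 the log2 fold change was -1.04 (adjusted p = 0.00112 from edgeR's test), and with only these 2 groups in the fit it was -1.44 with an adjusted p of 0.0525. In the other subsets, mt-Co1 had log2 fold changes of -0.28, -0.38 and -0.43 in TH2, TH17 and Treg cells (standard error 0.32 each) and did not pass the test. The TH17 value was -0.46 without replicate 3 labelled Dohh-/-. In TH17 cells it was 6076, 7215 and 6483 CPM in WT and 3462, 6041 and 5695 CPM in libraries labelled Dohh-/-, and in Treg cells 6388, 5103 and 5510.0 CPM and 3419, 4145 and 5052 CPM. Every deficient library of these 2 subsets was below all WT libraries.

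**Figure D3:**
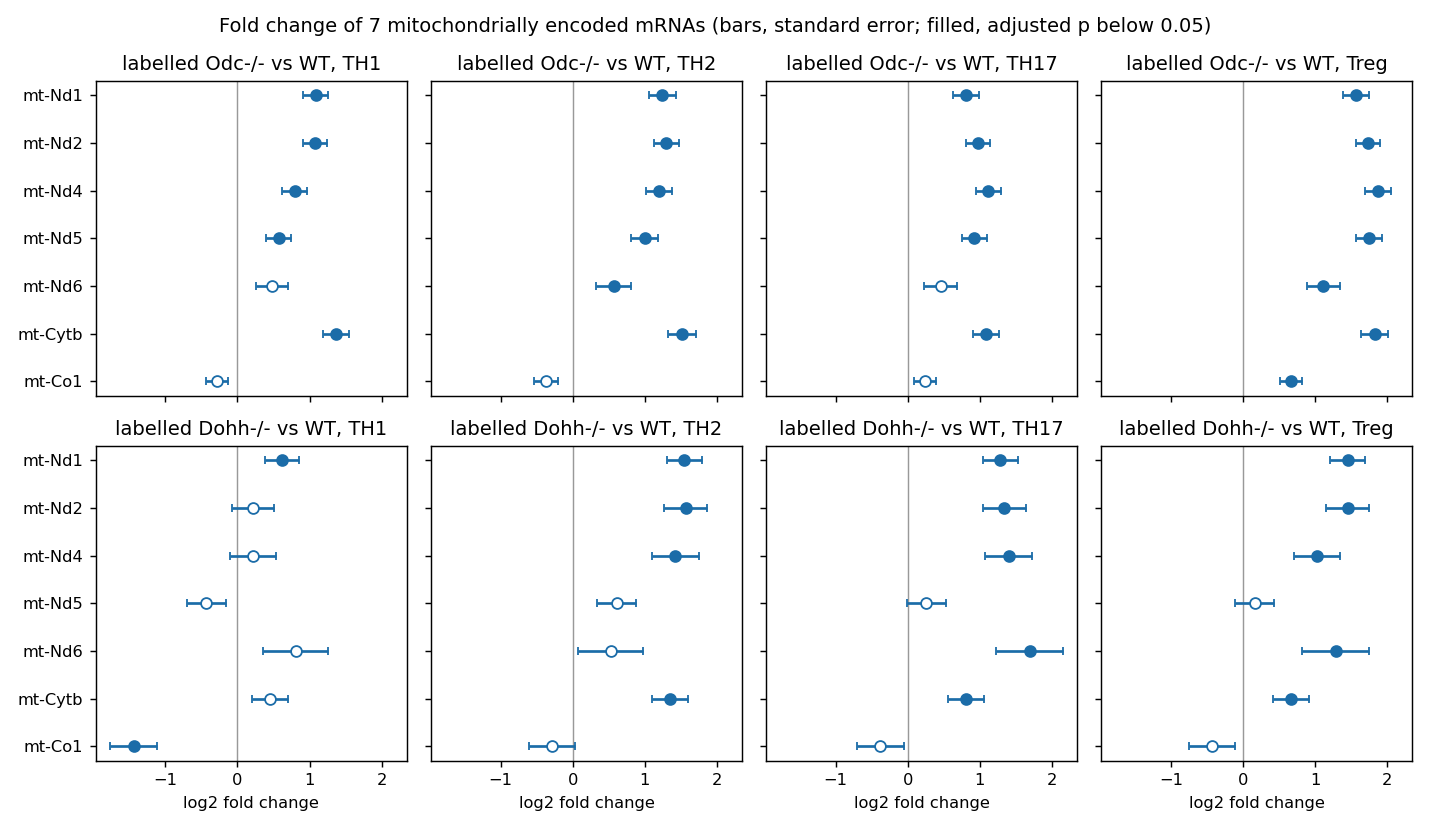
Log2 fold change of each tested member in the 8 comparisons of libraries labelled as deficient with WT, with standard errors. Filled points passed an adjusted p-value below 0.05; mt-Co1 lies to the left of mt-Nd1 and mt-Cytb in all 8.

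mt-Co1 was the most abundant of the 7 tested members. Its share of the counts of the 10 mRNAs describes the same divergence within each library, independent of library size. mt-Co2, mt-Co3 and mt-Atp6, whose counts are not read as levels, add almost nothing to that sum. The share was lower in libraries labelled as deficient in all 8 comparisons, with no overlap of the groups. It is a description over members chosen with earlier results known and was given no test. In TH1 cells of the Odc table, mt-Co1 made up 74.3, 74.4, 75.7 and 66.9% of the members' counts in WT and 58.9, 49.0, 49.6 and 49.6% in libraries labelled Odc-/-. In TH2 cells the mean share was 74.5% in WT and 48.8% in libraries labelled Odc-/-, in TH17 cells 62.5% and 50.1%, and in Treg cells 66.8% and 49.2%. Libraries labelled Odc-/- thus gathered near the same value in all 4 subsets (46.9% to 58.9%), while WT libraries ranged from 58.8% to 76.5%. Among the WT libraries, replicate 4 had the lowest share in each of the 4 subsets (66.9%, 70.0%, 58.8% and 59.6%) and the highest level of mt-Cytb. The mean share in the Dohh table was 76.4% in WT and 46.1% in libraries labelled Dohh-/- in TH1 cells, 79.5% and 55.8% in TH2 cells, 73.5% and 52.7% in TH17 cells, and 72.3% and 50.3% in Treg cells. The TH1 libraries labelled Dohh-/- were the most scattered, at 46.9, 25.2 and 66.2%. Without the 2 libraries that stood apart, the mean was 56.5% in TH1 and 56.4% in TH17 libraries labelled Dohh-/-. mt-Nd1 showed the opposite, with 5.48% to 7.88% of the members' counts in WT libraries of the Dohh table and 11.6% to 23.4% in those labelled Dohh-/-. The mt-Nd1 share was higher with the Odc-/- label too, but the Treg groups overlapped (7.55% to 10.7% in WT and 10.6% to 13.9%) and the TH17 groups lay close together (9.46% to 11.2% and 11.8% to 13.3%).

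**Figure D4:**
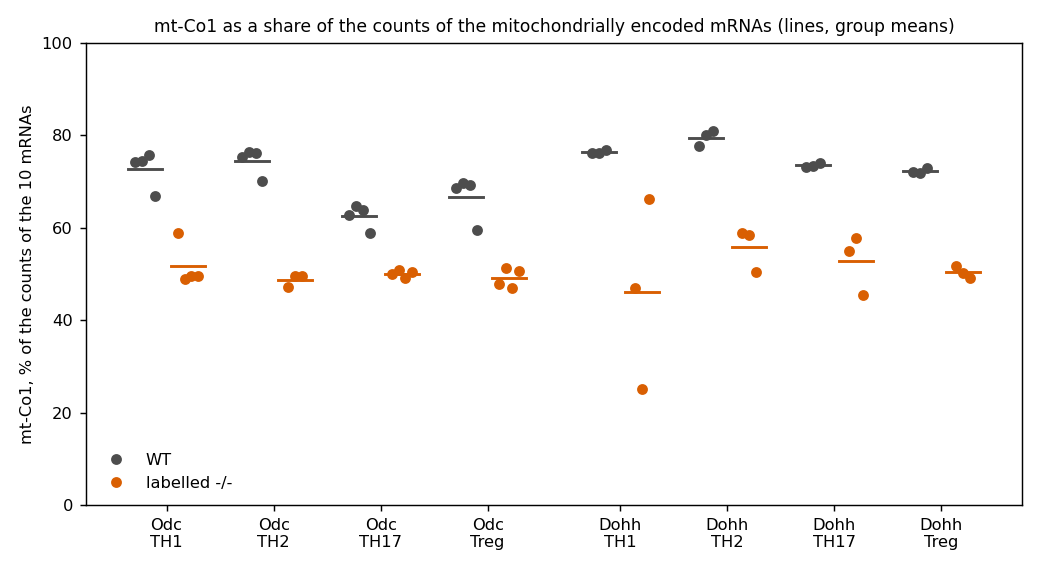
Counts of mt-Co1 as a percent of the counts of the 10 mitochondrially encoded mRNAs in each library (points), with group means (lines), for WT (grey) and libraries labelled Odc-/- or Dohh-/- (orange). mt-Co2, mt-Co3 and mt-Atp6 add almost none of these counts. In each subset of both tables the deficient libraries lie below all WT libraries.

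As a share of all counts, the members together made up 0.748% to 1.52% of WT and 1.22% to 2.70% of deficient libraries in the Odc table. mt-Co2, mt-Co3 and mt-Atp6 added almost nothing to these sums. Treg libraries labelled Odc-/- had the highest mean share (2.10%, from 1.73% to 2.70%, replicate 2 the highest), and their WT libraries had 0.748% to 1.29%. Their range overlapped that of TH2 libraries labelled Odc-/- (1.22% to 1.86%). Of the Dohh-table counts, the members made up 0.680% to 1.35% in WT libraries and 0.343% to 1.26% in deficient ones. TH1 libraries labelled Dohh-/- (0.343% to 0.775%) lay below their WT libraries (1.10% to 1.35%), with replicate 2 the lowest.

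Whether the effect of genotype differed between subsets was asked with an interaction test. In the Odc table, 4 of 7 members passed (34.8% of all genes), namely mt-Nd2, mt-Nd4, mt-Nd5 and mt-Co1 (adjusted p = 0.0452, 0.007, 0.00313 and 0.00156 from edgeR's quasi-likelihood F test). Each of these 4 had its largest log2 fold change in Treg cells. mt-Nd5 ranged from 0.57 in TH1 to 1.75 in Treg cells, and mt-Co1 from -0.37 in TH2 to 0.67 in Treg cells. The interaction of mt-Nd2 did not hold in several refits without 1 library, among them those without replicate 1, 2 or 3 of the Treg libraries labelled Odc-/-, where 3 of 7 members passed. With the replicate number as a block within each genotype, mt-Nd1 and mt-Cytb passed as well (6 of 7, edgeR, adjusted p = 0.00283 and 0.00133), where 52.9% of all genes did. In the Dohh table, 0 of 7 passed (17.9% of all genes, edgeR's quasi-likelihood F test), although mt-Nd1, mt-Nd2 and mt-Nd4 had an unadjusted p below 0.05 (3 of 7). None passed with that block either (19.0% of all genes). For mt-Nd1, mt-Nd2 and mt-Nd4, whose log2 fold changes were smallest in TH1 cells of that table, a difference between subsets was therefore not shown. Leaving out 1 library brought 1 or 2 members past the threshold, for example mt-Nd2 and mt-Nd4 without replicate 1 of the TH17 libraries labelled Dohh-/-.

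The effects of the Odc and Dohh genotypes were set against each other in 1 fit of both tables, each relative to its own WT libraries. In TH1 cells, 3 of 7 members differed (18.5% of all genes). The difference, Odc effect minus Dohh effect on the log2 scale, was 1.14 (standard error 0.34, adjusted p = 0.0143) for mt-Co1, 0.98 (standard error 0.32, adjusted p = 0.0241) for mt-Nd5 and 0.89 (standard error 0.30, adjusted p = 0.0326) for mt-Cytb in edgeR's test. Without replicate 2 of the TH1 libraries labelled Dohh-/-, the difference of mt-Co1 was 0.74 (adjusted p = 0.062) and 1 of 7 members passed. The mt-Cytb call in TH1 cells was lost in 6 of the refits without 1 Odc library, namely without WT replicate 1, 2 or 3 (adjusted p = 0.062, 0.0676 and 0.0631) or replicate 2, 3 or 4 labelled Odc-/- (0.056, 0.0517 and 0.0548, edgeR). The count was also 1 without WT replicate 1 or 2 of the Dohh table or without replicate 3 labelled Dohh-/-. In Treg cells, the same 3 members differed (26.2% of all genes), by 1.54 (standard error 0.32, adjusted p = 0.000226) for mt-Nd5, 1.12 (standard error 0.30, adjusted p = 0.00393) for mt-Cytb and 1.06 (standard error 0.34, adjusted p = 0.0163) for mt-Co1 in edgeR's test. The Treg call of mt-Co1 was lost without WT replicate 4 or replicate 2 labelled Odc-/- (adjusted p = 0.0518 and 0.0635) or without replicate 1 labelled Dohh-/- (0.0564, edgeR). All 6 differences were positive, that is, the level relative to WT was higher with the Odc than with the Dohh label. In TH2 cells, 0 of 7 members differed in edgeR's test (0 at an unadjusted p below 0.05, 15.7% of all genes), with differences from -0.29 for mt-Nd1 to 0.40 for mt-Nd5 and standard errors of 0.30 to 0.50. In TH17 cells, 0 of 7 differed in edgeR's test (1 at an unadjusted p below 0.05, 21.4% of all genes), and mt-Nd6 had a difference of -1.28 (standard error 0.50, adjusted p = 0.0593). Without replicate 3 labelled Dohh-/- it was -0.67 (adjusted p = 0.381), and mt-Nd5 passed with 0.99 (adjusted p = 0.0245, edgeR). mt-Nd6 passed without replicate 3 labelled Odc-/- (adjusted p = 0.0423) or replicate 1 or 2 labelled Dohh-/- (0.0224 and 0.0401, edgeR). With all libraries, mt-Nd1 passed in no subset, and its 4 differences lay between -0.53 and 0.45. Without replicate 1 of the TH17 libraries labelled Dohh-/-, its TH17 difference was -0.78 and passed (adjusted p = 0.0404, edgeR). Without replicate 1 of the TH1 libraries labelled Dohh-/-, its TH1 difference was 0.73 (adjusted p = 0.0772, edgeR).

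**Figure D5:**
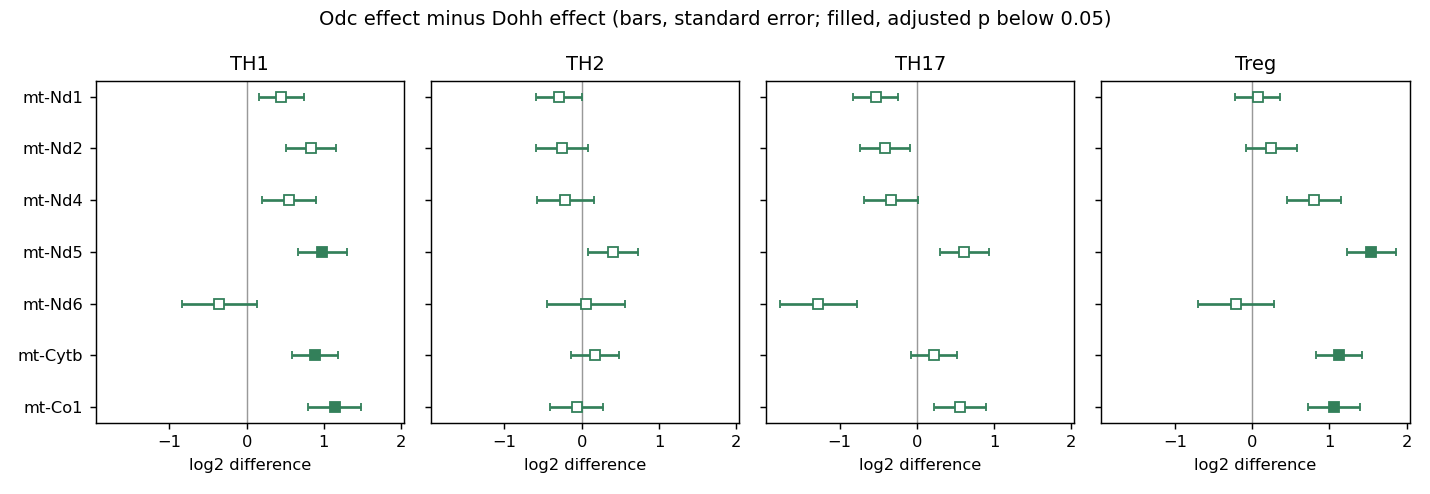
Odc effect minus Dohh effect on the log2 scale for the 7 tested members in each subset, with standard errors. Filled squares passed an adjusted p-value below 0.05; these are mt-Nd5, mt-Cytb and mt-Co1 in TH1 and in Treg cells, between 0.89 and 1.54.

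In the Odc table, the heavy-strand members other than mt-Co1 had similar profiles across libraries. As a description over the 31 libraries of the Odc table, which share groups and depth, the log2 CPM of mt-Nd1 and mt-Nd2 had a Pearson r of 0.99, and that of mt-Nd4 and mt-Nd5 0.98. In the 24 libraries of the Dohh table, mt-Nd2 and mt-Nd4 had an r of 0.97, but mt-Nd5 had an r of only 0.52 to mt-Nd1, 0.62 to mt-Cytb and 0.69 to mt-Nd2. mt-Nd6 had an r of 0.61 to mt-Cytb across Odc-table libraries, and in the other table of 0.77 to mt-Nd4 and 0.48 to mt-Nd5. Without the 2 Dohh libraries that stood apart (22 libraries), mt-Nd5 had an r of 0.43 to mt-Nd1, 0.52 to mt-Cytb, 0.62 to mt-Nd2 and 0.41 to mt-Nd6, mt-Nd6 had 0.74 to mt-Nd4, and mt-Nd2 and mt-Nd4 kept 0.97. The r of mt-Co1 to the other tested members in the Odc table ran from 0.16 (mt-Cytb) and 0.28 (mt-Nd1) to 0.48 (mt-Nd4), 0.49 (mt-Nd5) and 0.59 (mt-Nd6). It ran from -0.43 (mt-Nd6) to 0.26 (mt-Nd5) in the Dohh table, and without those 2 libraries from -0.45 (mt-Nd1) to 0.49 (mt-Nd5). Genes were also ranked by likeness to the mean log2 CPM of all 10 members, which includes mt-Co2, mt-Co3 and mt-Atp6, not read as levels. Among the 12908 genes compared, the first 5 were Ftl1, which encodes the ferritin light chain, Prodh, the mitochondrial proline dehydrogenase, Tnfrsf21, a death receptor, Rogdi and App, the amyloid precursor protein. The smaller of their r in the 2 tables was 0.82 for each. Within groups, r across Odc-table libraries was only 0.086 for Ftl1 and 0.18 for Rogdi, whose likeness there rests largely on differences between groups. It was 0.39 for Prodh, 0.41 for Tnfrsf21 and 0.62 for App. Across Dohh-table libraries it was 0.68 for Ftl1 and from 0.56 to 0.78 over the 5 genes. With the mean of the 7 tested members in place of all 10, Prodh and App stayed among the first 5 and Cers6, Gusb and Snx8 took the other places.

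Other RNAs of the mitochondrial genome did not all move with the members. The rRNAs mt-Rnr1 and mt-Rnr2 had 1470 to 9194 and 2940 to 11919 counts per library. In the Odc table, mt-Rnr1 was lower in libraries labelled Odc-/- in TH1, TH2 and TH17 cells (log2 fold changes -0.61, -0.84 and -0.90, adjusted p = 0.0204, 0.00424 and 0.00184 from edgeR's test). In Treg cells it was -0.34 and did not pass the test (adjusted p = 0.178, edgeR). mt-Rnr2 passed in no subset of the Odc table, with -0.17, -0.38, -0.36 and -0.095 in TH1, TH2, TH17 and Treg cells. mt-Nd1, the first mRNA downstream of the rRNAs, was higher in all 4 subsets, by 1.09, 1.24 and 0.81 in TH1, TH2 and TH17 cells and most in Treg cells, by 1.56. mt-Rnr1 and mt-Rnr2 were higher in TH17 cells of the Dohh table (1.04 and 1.25) and mt-Rnr2 in Treg cells (0.68). Without replicate 3 of the TH17 libraries labelled Dohh-/-, the TH17 values were 0.58 (adjusted p = 0.0569) and 0.84 (adjusted p = 0.0038, edgeR). Replicate 3 of the TH17 libraries labelled Dohh-/- had 0.321% of its counts in the rRNAs, the highest share of any library in that table. The library kit selects polyadenylated RNA, and rRNA and tRNA counts are what remained after that selection. Of the 22 tRNA genes, 5 were tested, with at most 111 counts, and each that passed was higher in the deficient libraries (3, 4, 2 and 5 in TH1, TH2, TH17 and Treg cells of the Odc table and 2, 1, 5 and 4 in those of the Dohh table). Of all genes, 29.1%, 29.9%, 25.6% and 32.9% were higher in these Odc and 25.9%, 23.8%, 27.0% and 28.4% in these Dohh comparisons. The 2 calls in Dohh TH1 cells were lost without replicate 2 labelled Dohh-/-, and without replicate 3 labelled Dohh-/- 4 of the 5 in TH17 cells remained. mt-Nd3 was higher in Treg cells of the Odc table and in TH17 and Treg cells of the Dohh table (log2 fold changes 0.87, 0.90 and 0.94), and its TH17 value was 0.66 without replicate 3 labelled Dohh-/- (edgeR, adjusted p = 0.167).

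The respiratory complexes join subunits from both genomes, and the nuclear genes of the same complexes were counted in the same comparisons. Their counts are to be read beside the shares of all genes that were higher, which in TH1, TH2, TH17 and Treg cells were 29.1%, 29.9%, 25.6% and 32.9% with the Odc label and 25.9%, 23.8%, 27.0% and 28.4% with the Dohh label. Of 36 nuclear complex I genes tested in the Odc table, 20, 20, 32 and 29 were higher and 2, 4, 1 and 1 lower in TH1, TH2, TH17 and Treg cells of libraries labelled Odc-/-, with median log2 fold changes of 0.38, 0.34, 0.58 and 0.54. Of 35 tested in the Dohh table, 31, 19, 25 and 19 were higher and 0, 2, 1 and 1 lower, with medians of 1.21, 0.75, 0.80 and 0.65. Ndufa5, a subunit of the matrix arm, rose in all 8 comparisons, on average by 1.15 with the Odc and 2.22 with the Dohh label, whereas Ndufv3 fell by 0.91 on average in the 4 subsets of the Odc table. Of 9 complex III genes, 7, 6, 6 and 6 were higher with the Odc and 7, 7, 5 and 6 with the Dohh label, while 1 was lower in TH1 and in TH2 cells of the Odc table and in TH17 cells of the Dohh table, with Uqcr10 and Uqcr11 higher in every subset of both tables. For complex IV, to which mt-Co1 belongs, 10, 8, 11 and 11 of 11 genes were higher with the Odc label and 10, 7, 10 and 7 of 10 with the Dohh label, and none was lower. Cox5a rose on average by 0.89 and 1.51, and Cox5b by 0.72 and 1.35. In TH1 cells of the Dohh table, all 10 tested nuclear complex IV genes were higher (median 1.27) where mt-Co1 was lower by a log2 fold change of -1.44. Of 15 ATP synthase genes, 11, 9, 14 and 13 were higher with the Odc and 12, 7, 10 and 7 with the Dohh label, none was lower, and Atp5g1 rose on average by 1.31 and 1.61. The medians over all genes were near 0, as given above.

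Genes that copy and handle mitochondrial RNA were counted likewise, where 56.8%, 59.2%, 47.8% and 59.8% of all genes in the Odc table and 50%, 45.3%, 52.0% and 53.4% in the Dohh table passed the test in either direction. Of 18 genes of mitochondrial transcription and DNA replication, 7, 8, 4 and 9 were higher and 3, 3, 2 and 2 lower in TH1, TH2, TH17 and Treg cells of libraries labelled Odc-/-, and 5, 7, 7 and 4 higher and 3, 3, 3 and 4 lower in those labelled Dohh-/-. Polrmt, the polymerase of the organelle, was higher in all 4 subsets of the Odc table (mean log2 fold change 0.87). Top1mt, the mitochondrial topoisomerase, was higher in all 8 comparisons (means 1.09 and 1.83) and Primpol, a primase-polymerase, lower in all 8 (means -1.49 and -1.56), as was Polg, the DNA polymerase of the organelle, in all 4 subsets of the Dohh table (-1.16). Of 22 genes of RNA processing, stability and decay, 15, 14, 6 and 13 were higher and 1, 2, 1 and 1 lower in the Odc table, and of 21 tested with the Dohh libraries, 10, 10, 4 and 10 were higher and 1, 0, 5 and 1 lower. Elac2, which cuts at the 3′ end of mitochondrial tRNAs, rose on average by 1.32 in the Odc table. Fastkd2, an RNA-binding protein of the mitochondrial matrix, rose in all 8 comparisons (means 1.29 and 1.08). Lrpprc, which stabilizes mitochondrial mRNAs, rose on average by 1.19 in the Dohh table. Of 8 regulators of mitochondrial biogenesis tested, 4, 5, 1 and 4 were higher and 0, 0, 2 and 3 lower in the Odc table, against 1, 1, 1 and 4 higher and 0, 1, 0 and 0 lower in the Dohh table. Esrra, a nuclear receptor of this group, was higher in 4 subsets of the Odc table and 3 of the Dohh table, and Pprc1, a coactivator, in 3 subsets of the Odc table.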

How the data were processed

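RNA of polarized CD4+ T cells was made into stranded mRNA libraries, and the authors deposited raw counts per gene in a table for each line, naming STAR, featureCounts, deepTools and mm10 in the submitters' processing notes. The strand setting, the read length and the treatment of reads with several matches are not given in the sources used here. Members and gene lists were chosen with earlier results of these data known. Groups were taken from the sample labels. Genes with low counts were removed (filterByExpr), library sizes were scaled by TMM, and all 8 groups of a table were fitted in edgeR 4.0.16 (R 4.3.3), with the robust quasi-likelihood test and Benjamini-Hochberg adjustment over the 13839 (Odc) or 13897 (Dohh) genes tested. A joint fit of 14850 genes compared the genotype effects. Calls are at an adjusted p-value below 0.05. The study itself used DESeq2 with a fold above 2. Alternatives were RLE scaling, scaling by genes outside the mitochondrial genome, no filter, DESeq2 1.42.0, fits of fewer groups, a replicate block over both genotypes, the fold threshold and leaving out each library. Deviations of same-numbered libraries from their group means correlated across subsets within a genotype (Odc WT, 24 of 24 pairs above 0.1, lowest 0.21; Dohh WT, 15 of 18 pairs), a pairing seen in the data and not given by the labels, and a block within each genotype was added. Shared stretches were found by exact matching of 75 bases to the GENCODE vM21 transcripts. The tests were also run on simulated counts drawn with the means and dispersions of the real fits. The named genes were all 10 members, the other genes of the mitochondrial genome, and in each fixed list up to 3 genes of largest mean change per table. Figures were drawn with matplotlib 3.10.9 (Python 3.11.15). Some marker levels are not reported here.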

Additional observations from a re-analysis of the deposited data

Results flagged for a closer look

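Dixon's criterion was applied to 49 sets of values, each of 1 tested member in 1 group of 4 libraries, and 5 values stood far from the rest of their set, where chance gives about 1 in 20. They came from 3 libraries. In TH1 cells of the Odc table, WT replicate 4 had 596 CPM of mt-Nd2, where the nearest other library had 429.9 CPM, and 1555 CPM of mt-Cytb, where the nearest had 937 CPM. Replicate 1 of the TH1 libraries labelled Odc-/- had 2125 CPM of mt-Cytb, below the nearest at 2939 CPM, and 10012 CPM of mt-Co1, above the nearest at 8501 CPM. In TH17 cells, replicate 3 labelled Odc-/- had 47.6 CPM of mt-Nd6, above the nearest at 34.3 CPM.

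The Odc effect and the Dohh effect differed on the log2 scale by 0.98 for mt-Nd5, 0.89 for mt-Cytb and 1.14 for mt-Co1 in TH1 cells, and by 1.54, 1.12 and 1.06 for the same members in Treg cells (edgeR's quasi-likelihood test). Within the Odc table, the genotype effect differed between subsets for mt-Nd2, mt-Nd4, mt-Nd5 and mt-Co1 (adjusted p = 0.0452, 0.00700, 0.00313 and 0.00156 from edgeR's test).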

How the results depend on the processing

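No count of members past the threshold and no log2 fold change that had passed the test turned direction under the alternatives run. With a fold above 2 required, the count was 3 in Odc TH1, 2 in Odc TH17 and 1 in Dohh TH1 cells. For Dohh TH1 it was 1 without the filter and 0 with only the 2 groups in the fit, and 7 members differed among Dohh WT subsets with only the 4 WT groups in the fit. These fits use fewer samples or more genes, and the cause was not tested further. Leaving out 1 library gave 1 to 4 members in Dohh TH1 cells (1 without WT replicate 2 or 3 or replicate 1 labelled Dohh-/-, 4 without replicate 3 labelled Dohh-/-), 3 in Dohh TH17 cells without replicate 3 labelled Dohh-/-, and 2 in Dohh Treg cells without WT replicate 2 or replicate 3 labelled Dohh-/- (3 without WT replicate 3). The Dohh interaction ranged from 0 to 2 members, with 1 without TH1 WT replicate 3, any of the TH1 libraries labelled Dohh-/-, TH17 replicate 3 or Treg replicate 1 labelled Dohh-/-, and 2 without TH17 replicate 1 labelled Dohh-/-. The Odc against Dohh count ranged from 1 to 4 in TH1 cells and from 0 to 2 in TH17 cells, where it was 1 without replicate 3 labelled Odc-/- or replicate 2 or 3 labelled Dohh-/- and 2 without replicate 1 labelled Dohh-/-. The mt-Nd6 call in Odc TH2 cells was lost with RLE scaling (adjusted p = 0.0536, edgeR), without the filter (0.118, edgeR) and with DESeq2 (0.064). Replicate numbers did not pair WT with deficient libraries of a subset (lowest correlation of same-numbered deviations -0.086). With the replicate block over both genotypes the Odc counts were 5, 6, 5 and 7 and the Dohh counts 2, 4, 5 and 5, and 56 of 56 member fold changes kept their side of the threshold. The counts among WT subsets (4 with the Odc and 0 with the Dohh label) and of the interaction (4 and 0) did not move either. With the replicate block within each genotype, added after the data were seen, 5 Odc and 0 Dohh members differed among WT subsets (81.5% and 41.0% of all genes) and 6 and 0 passed the interaction test (52.9% and 19.0%). mt-Nd6 had 121 to 689 counts per library and the largest spread of the 7 tested members (biological coefficient of variation 0.218 in the Odc and 0.379 in the Dohh fit), and mt-Co2, mt-Co3 and mt-Atp6, with at most 7 counts, were not tested.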
